A study of Homo sapiens with 2 samples.

Results

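The MX proteins and the guanylate-binding proteins (GBPs) are the large GTPases that cells make in answer to interferon. The 6 genes described here are MX1, MX2, GBP1, GBP2, GBP3 and GBP4, out of 19740 named genes with a probe on the arrays. Their probes were taken by RefSeq accession, which gave 1 probe per gene and 6 probes in all. The group was selected on earlier results of these same arrays, in which the ratios of MX1 and MX2 were among the largest, so these ratios are a description and support nothing by themselves.

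Interferons bind receptors at the cell surface, and Janus kinases then activate STAT proteins. Type I and type III interferons act through a complex that includes STAT2 and IRF9 and binds the interferon-stimulated response element (ISRE), whereas interferon gamma acts mainly at the gamma-activated site (GAS). MX1 and MX2 are dynamin-like GTPases induced mostly by the first route, and each blocks steps in the life cycle of certain viruses. GBPs respond strongly to interferon gamma and assemble on bacteria and on the vacuoles of parasites.

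RNA came from RWPE-1 cells, an immortalised, noncancerous human prostate epithelial cell line grown in keratinocyte serum-free medium. One group had been transfected with the miR-424 precursor pre-miR-424 at 30 nM, and the other with a negative control precursor at that dose; the time of harvest is not given in the labels. Both RNAs were hybridised together to 2 Agilent two-colour arrays, with pre-miR-424 RNA in Cy5 and control RNA in Cy3 on the array with normal labelling, and the reverse on the dye swap. The arrays are technical repeats of 1 pair of RNAs, hence 1 replicate, so that no p-value was computed and the SD between the arrays covers labelling and hybridisation only. The basal markers KRT5, KRT14 and TP63 were detected well over background in Cy3 and in Cy5 on each array, as were all 9 epithelial markers examined. The mature miR-424-5p is shown because it is the agent of the experiment, and the capitals mark its seed, bases 2 to 8, in the RefSeq sequence (GRCh38.p14).
hsa-miR-424-5p: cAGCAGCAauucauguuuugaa

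The promoter sequences show which interferon-type motifs lie at these genes. RefSeq windows (GRCh38.p14) from 250 bases before to 50 bases after a start site were present for 4 of the members, namely MX1 with 3 starts and GBP1, GBP3 and GBP4 with 1 each. Both strands were searched for the ISRE core GAAANNGAAA and for the GAS letters TTCNNNGAA. All 4 genes held at least 1 ISRE core, against 4.38% of the 27305 genes with a window and 3.57% of the 35116 single windows, although the 3 windows of MX1 gave it more chances of a match. The GAS letters were found at MX1 and GBP3, against 9.38% of all genes. Each ISRE match is printed 5′ to 3′ on the strand of the gene, with the match in capitals and 10 bases on either side; where the capitals begin with TTTC, the motif reads on the other strand.
MX1, the first start, chr21:41420559-41420588, plus strand: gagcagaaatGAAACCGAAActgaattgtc
MX1, the third start, chr21:41431844-41431873, plus strand: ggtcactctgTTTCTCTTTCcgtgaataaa
GBP1, chr1:89065316-89065345, minus strand: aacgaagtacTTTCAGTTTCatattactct
GBP3, chr1:89022845-89022874, minus strand: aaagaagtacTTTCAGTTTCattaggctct
GBP4, chr1:89198927-89198956, minus strand: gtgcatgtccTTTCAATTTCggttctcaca

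The stretches of GBP1 and GBP3 were alike, with 25 of 30 bases identical, whereas GBP4 shared 16 of 30 bases with either of them. The stretch at the third start of MX1 shared 15 of 30 bases with GBP4. All of these stretches share the fixed letters of the motif by construction. Counted from the start site, the match began at base −127 in GBP1, at −4 in GBP4 and at 3 in GBP3. At MX1 it began at base 12 from the first start and at −196 from the third, where the GAS letters began at −189 and overlapped it. The second start of MX1 held neither motif. A match describes letters in a window and was not tested as a site of binding.

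**Figure D1:**
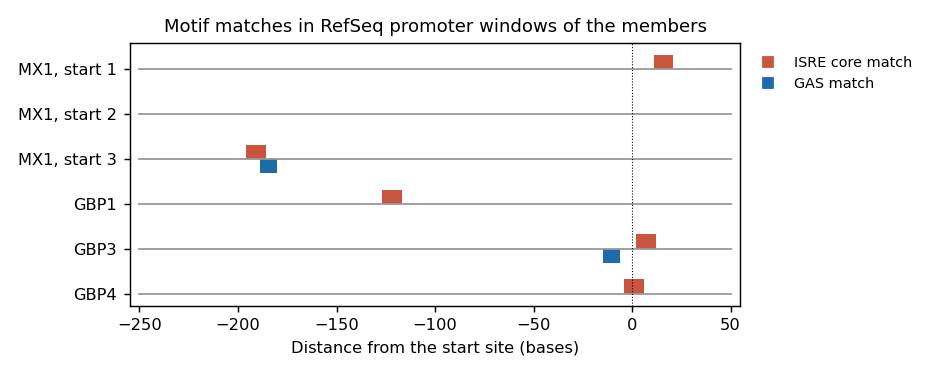
Positions of the ISRE core (red) and GAS (blue) letters in the promoter windows of MX1 (3 starts), GBP1, GBP3 and GBP4, with the distance from the start site in bases on the x axis and 0 at the dotted line. The 4 genes each hold an ISRE match, and GAS letters appear at the third start of MX1 and at GBP3.

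The comparison asked whether RNA of these GTPases differed in level after transfection of pre-miR-424. Both MX genes rose on both arrays, MX2 by 3.10-fold and MX1 by 2.58-fold in the mean. Of the 4 GBP members, GBP1 had a ratio of 1.31-fold, GBP4 of 1.14-fold and GBP3 of 1.11-fold, and none of these reached 2-fold, while GBP2 was too dim to be measured. Thus 2 of the 6 member probes passed 2-fold upwards with normal labelling and on the swap, as did 0.0546% of the 25664 measured probes, and 0 passed downwards. Measured probes are those that the scanner software marked well over background in Cy3 as well as in Cy5, on each of the arrays, with no outlier spot. As the group was selected on this contrast, nothing is read from the difference between these shares.

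MX1 (NM_002462), which encodes the cytoplasmic protein MxA, had a median spot signal of 21338.5 with pre-miR-424 and 4864 in control cells on the array with normal labelling. On the dye swap the signals were 11053.5 and 9441 in the same order (each the mean of 2 spots, in scanner units, over local backgrounds of 26.5 to 69.5). The pre-miR-424 channel was thus the brighter one on both arrays before any normalization, although it carried a different dye on each. After normalization, the lower of the 2 spots on the first array gave a log2 ratio of 1.40, and the spots of the swap gave 1.30 and 1.26. The probe means were 1.45 and 1.28 (mean 1.37, SD 0.12 between the arrays). MX1 ranked 4 among 13812 measured genes by the mean, 5 with normal labelling and 9 with swapped dyes.

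MX2 (NM_002463), which encodes the MxB protein of the nuclear envelope that restricts HIV, had signals of 2818.5 with pre-miR-424 and 594.5 in control cells with normal labelling. On the swap they were 1581 with pre-miR-424 and 990 in control cells. As for MX1, the pre-miR-424 channel was brighter on both arrays. The spots gave log2 ratios of 1.63 and 1.67 on the first array and of 1.68 and 1.55 on the swap, so that the spread of spots within an array was at least as large as that between the arrays. The probe means were 1.65 and 1.62 (mean 1.63, SD 0.022). MX2 ranked 3 with normal labelling, 1 with swapped dyes and 2 by the mean. The log2 ratio of MX2 exceeded that of MX1 by 0.20 with normal labelling and by 0.34 on the swap. The technical SD of a single array, estimated from the differences between the arrays, was 0.20 to 0.22. It was taken among the 1000 measured probes closest to either one in intensity. The order of the pair is therefore not settled by these arrays.

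**Figure D2:**
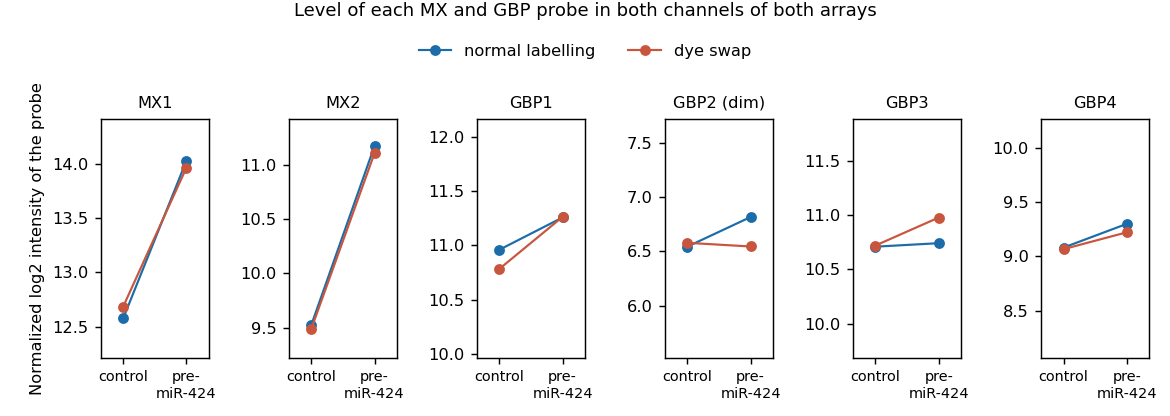
Normalized log2 intensity (y axis, spanning the same width in every panel) of each member's probe in control and pre-miR-424 RNA on the array with normal labelling (blue) and on the dye swap (red); levels of different probes are not comparable. The lines of MX1 and MX2 climb steeply on both arrays, from 12.58 to 14.03 and from 9.52 to 11.17 with normal labelling, whereas those of the GBP probes climb by at most 0.48.

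The GBP genes lie in one cluster on chromosome 1, and their proteins share a GTPase domain. GBP1 (NM_002053), the best studied member and a protein that coats cytosolic bacteria, had signals of 3021 with pre-miR-424 and 1635 in control cells with normal labelling, and of 1748.5 and 2454 on the swap. The Cy5 channel was therefore the brighter on both arrays, whichever RNA it carried. After normalization the spots gave log2 ratios of 0.34 and 0.26 on the first array and of 0.47 and 0.49 on the swap. The probe means were 0.30 and 0.48 (mean 0.39, SD 0.13). This mean was 2.51 times the technical SD of a mean of the arrays (0.15), against 9.55 times for MX1 and 10.7 times for MX2. That SD was estimated from the differences between the arrays among the 1000 probes nearest in intensity. It does not measure how far mean ratios vary between genes. GBP1 ranked 367 of 13812 genes.

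GBP4 (NM_052941) had signals of 768 with pre-miR-424 and 442 in control cells with normal labelling, and of 423 and 732 on the swap. Its single spot gave log2 ratios of 0.22 and 0.15 (mean 0.19, SD 0.045). The arrays agreed closely here, but the mean was only 1.17 times the technical SD of a mean among probes of like intensity (0.16).

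GBP3 (NM_018284) had signals of 2101.5 and 1366.5 with normal labelling, and of 1431.5 and 2335.5 on the swap, for pre-miR-424 and control in that order. Its log2 ratios were 0.03 and 0.26 (mean 0.14, SD 0.16), so the mean was smaller than the SD between the arrays. In these probes too, Cy5 was the brighter channel on both arrays.

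GBP2 (NM_004120) had the dimmest probe relative to its background. Its signals were 132.5 with pre-miR-424 and 70 in control cells with normal labelling, and 67 and 117.5 on the swap, over backgrounds of 66 to 68.5 in Cy5 and of 27 in Cy3. It was well above background in Cy5 and not in Cy3 on both arrays, so that its detection followed the dye and neither RNA was detected on both arrays. The normalized log2 ratios of 0.27 and −0.03 differed in sign, and no difference was detectable at this signal. GBP2 was therefore left out of the counts of measured members.

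All 5 measured members had log2 ratios above 0 on both arrays, against 26.8% of the 13812 measured genes, a share from which nothing is read because of the selection. Under median centring in place of the loess fit, GBP4 fell below 0 on the swap (−0.04) and 4 of the 5 stayed above. The same setting gave MX1 log2 ratios of 1.69 and 0.92, so that it no longer passed 2-fold on the swap, and 1 of the 6 member probes passed on both arrays. It shifted the overall median of the measured probes as well, to 0.10 and −0.18, and relative to this shift MX1 stood at 1.59 and 1.11 and GBP4 at 0.21 and 0.14. The median log2 ratio of the 5 measured members was 0.39, and that of all measured genes was −0.0042. Among the measured members, the lowest MX value exceeded the highest GBP value by 1.15 with normal labelling and by 0.80 on the swap. GBP5 is not a member and is left out of this gap, although its log2 ratios were 0.68 and 0.36. The gap between the MX and GBP members was not tested, since there is 1 replicate.

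**Figure D3:**
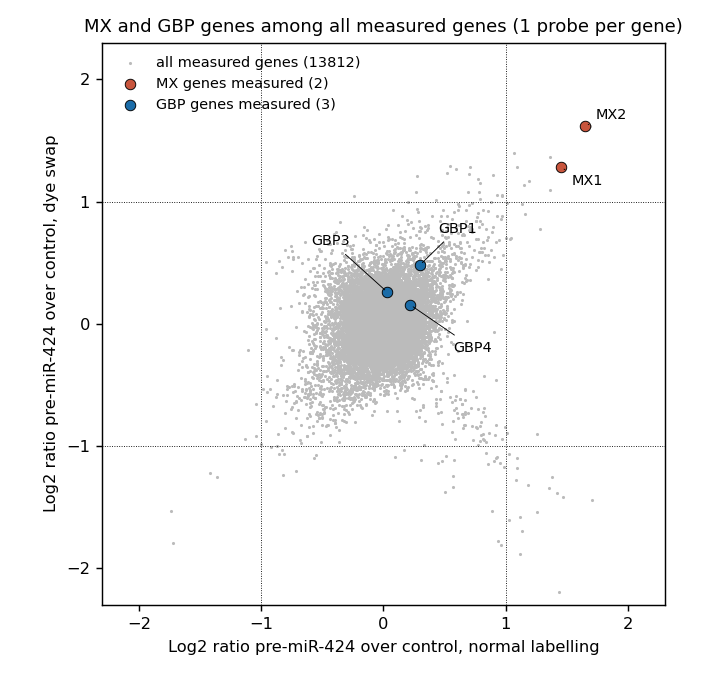
Log2 ratio of pre-miR-424 over control on the array with normal labelling (x axis) and on the dye swap (y axis) for 13812 measured genes (grey), with the 2 MX genes in red and the 3 measured GBP members in blue; dotted lines mark 2-fold. MX1 and MX2 lie beyond 2-fold on both arrays, and GBP1, GBP3 and GBP4 lie within the cloud of all genes.

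Other GTPases with links to interferon were read beside the members. GBP5 (NM_052942), which takes part in inflammasome assembly, had log2 ratios of 0.68 and 0.36 (mean 0.52, SD 0.23) on a dim probe. This mean was 3.52 times the technical SD of a mean among probes of like intensity, and it was above the mean of GBP1. GBP6 (NM_198460) gave −0.02 and −0.20 at its bright probe, whereas its other probe was well above background only with pre-miR-424 on the normal array. The probe of GBP7 was not well above background in any channel.

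The dynamins, mitofusins, atlastins and EHD proteins are large GTPases of membrane remodelling that resemble MX and GBP proteins in sequence or in mechanism. Of the 15 genes of this list, 14 were measured, and 1 of them was higher and 6 were lower on both arrays. Of all 13812 measured genes, 3703 were higher and 3687 lower on both. The lists were chosen with earlier results known, so nothing is read from differences between such shares. None of the 14 passed 2-fold, and their median log2 ratio was −0.10. The largest values in size were those of MFN2, a mitochondrial fusion protein (−0.35 and −0.37), of DNM3 (0.11 and 0.35, on a dim probe) and of MFN1 (−0.08 and −0.35). The range of the list, from −0.36 to 0.23, did not reach either MX gene. None of the 14 genes of this list with a promoter window held an ISRE core or the GAS letters. Of all genes with a window, 4.38% held the first and 9.38% the second. In so short a list, no match is near these shares, and nothing is read from it.

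Genes known to respond to type I interferon had ratios above 1 almost throughout. Of the 30 measured genes of the list, 29 were above 0 on both arrays and 0 were below on both, beside 3703 and 3687 of all 13812 genes. The median log2 ratio of the list was 0.59. Under median centring 27 of the 30 were above 0 on both. That setting shifted the median of all measured probes to 0.10 with normal labelling and −0.18 on the swap. The matching count over all genes is not reported here, so nothing is read from this one. At least 2-fold higher on both arrays were IFI44L (1.69 and 1.62), CMPK2, a mitochondrial nucleotide kinase (1.37 on both), IFI6 (1.36 and 1.09) and XAF1 (1.07 and 1.39). Of all 13812 measured genes, 10 passed 2-fold upwards on both arrays. MX2 had a larger mean than 29 of these 30 genes and MX1 a larger one than 28. GBP1 exceeded 2 of them, and GBP3 and GBP4 lay below all 30, of which EIF2AK2 was lowest with a mean of 0.19. An ISRE core was found in 20 of the 28 genes of this list with a promoter window (71.4%) and in 8 of 13 of the interferon gamma list (61.5%). The GAS letters were found in 8 of 28 (28.6%) and 7 of 13 (53.8%) of them. The shares over all genes with a window were 4.38% for the ISRE core and 9.38% for the GAS letters.

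The list for interferon gamma had 12 measured genes, with a median log2 ratio of 0.18. The median was 0.27 with normal labelling alone and 0.059 on the swap alone. Of the 12 genes, 8 were above 0 on both arrays and 1 was below, beside 3703 and 3687 of all 13812 genes. Under median centring 3 of the 12 were above. Without the matching count over all genes under that shifted setting, nothing is read from this fall. None of the 12 passed 2-fold on both arrays. The chemokines CXCL10 (0.79 and 1.15) and CXCL11 (0.93 and 0.88) were far above the others, and PSMB8, a subunit of the immunoproteasome, came next (0.34 and 0.24). CXCL9, IDO1, CIITA, CD74, HLA-DRA and ICAM1 were not measured by the rule above. The GBP members lay within the range of the remaining genes of this list, apart from GBP1, whose mean of 0.39 was above that of PSMB8 (0.29).

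Among 21 measured genes of interferon signalling, 9 were above 0 on both arrays and 5 below, beside 3703 and 3687 of all 13812 genes. The median log2 ratio of the 21 was 0.019 (−0.024 under median centring). The factors IRF7 (1.04 and 0.69), IRF9 (0.70 and 0.64) and STAT2 (0.62 and 0.54) had the largest values, and the receptors and Janus kinases lay between −0.22 and 0.23. Of the interferon genes in this list, IFNB1 and IFNL3 were not measured, IFNL1 gave 0.12 and 0.08, and IFNL2 gave 0.28 and −0.08, on dim probes.

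**Figure D4:**
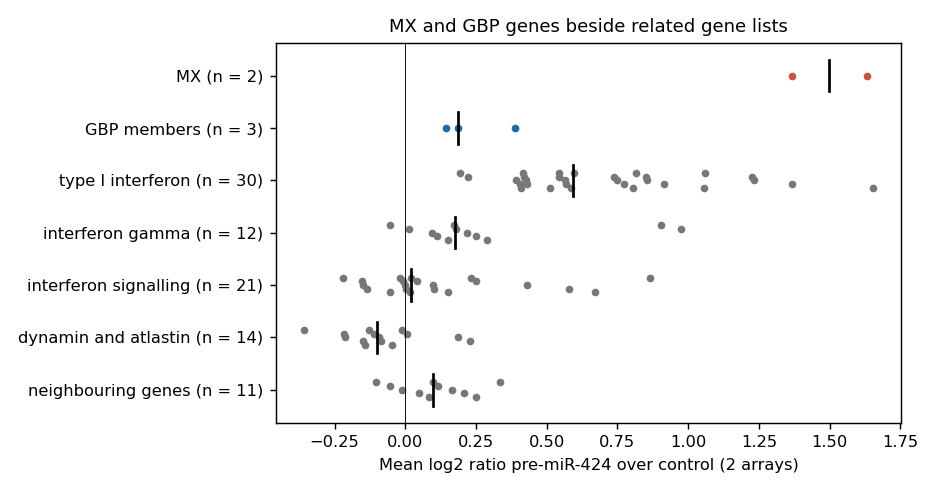
Mean log2 ratio over the 2 arrays (x axis) of each measured gene, as 1 point, in the MX and GBP families and in 5 gene lists, with the median of each as a black bar. The MX genes lie at the upper end of the type I interferon list, and the GBP members lie near or below its lower end and among the genes of the interferon gamma list.

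MX1 and MX2 lie side by side on chromosome 21. The flanking genes of this pair and of the GBP cluster formed a list of 14, of which 11 were measured. The median log2 ratio was 0.10 (0.056 and 0.15 on the single arrays, 0.042 under median centring), and none of the 11 passed 2-fold. Of the 11, 7 were above 0 and 1 below on both arrays, beside 3703 and 3687 of all 13812 genes. Under median centring 1 of the 11 was above and 1 below. Here too the setting shifted all measured probes and no matching count over all genes is given, so nothing is read from the fall. The largest values were those of ZNF326 (0.45 and 0.22), LRRC8C (0.06 and 0.44) and GTF2B (0.16 and 0.25). The 3 measured genes near the MX pair, named outside the rule for naming genes, were RIPK4 (0.07 and 0.26), PRDM15 (−0.05 and 0.15) and BACE2, whose mean was −0.012. FAM3B, TMPRSS2 and PLAC4, also listed as neighbours of the MX pair, were not measured, so these values do not cover every gene beside it.

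By the distance between the pairs of log2 ratios on the 2 arrays, the genes most like MX2 were IFI44L (distance 0.040), CMPK2 (0.38) and MX1 (0.39). Those most like MX1 were NECTIN2 (0.015), CMPK2 (0.12) and IFI6 (0.21). A single gene lay within 0.1 of MX1, and 1 of MX2. The values of GBP3 and GBP4 were common ones, as 638 and 619 of the 13812 measured genes lay within 0.1 of them. Fewer genes, 87, lay within 0.1 of GBP1, and 97.3% of the measured genes had a lower mean than GBP1. The nearest genes were RBM8A, NT5E and HOXA9 for GBP1, EAF2, GOLGA8A and SMIM8 for GBP3, and PLK2, ARHGEF7 and WNK2 for GBP4.

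Immune cells also express MX and GBP genes. Of 7 immune markers, 5 were measured, with a median log2 ratio of −0.07 and a range from −0.30 to 0.15, and PTPRC, the pan-leukocyte marker, gave −0.05 and −0.08. The 3 measured fibroblast markers had means of 0.08 to 0.17 and the endothelial marker CDH5 one of 0.06. None of these markers moved by 2-fold on both arrays. The 9 epithelial markers did not either, with a median log2 ratio of −0.05. The arrays disagreed for some of the brightest of them, as KRT5 gave 0.09 and −1.09 and KRT18 gave 0.73 and −0.55. The probes of PTPRC, the immune marker CSF1R and the fibroblast marker COL3A1 were dim, with mean log2 intensities of 6.85, 6.82 and 6.84. The offset draws ratios of such probes towards 0. Whether immune, stromal or endothelial cells were present was not tested. In RNA from a whole culture, a change in the number of cells that express a gene and a change in RNA per cell cannot be told apart.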

How the data were processed

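The members and lists were chosen with earlier results of these data known. The scanner files deposited by the authors hold, per spot, the median intensity and local background in Cy3 and Cy5 (not normalized), processed intensities that the scanner software corrected and dye-normalized, and a log10 ratio of the processed dyes. The authors' deposited table holds log2 values of unstated scale and direction. Comparison with the scanner values showed log2 ratios, red over green on each array alike (r = 0.991 and 0.988 across probes, column medians of 0.024 and 0.036). The submitters' processing notes name limma; its settings are not given in the sources used here.

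Median intensities were corrected by normexp (offset 50, all spots) in limma 3.58.1 (R 4.3.3). Control spots were left out, each array was fitted by loess, replicate spots were averaged, and ratios were turned to pre-miR-424 over control. The offset draws ratios of dim probes towards 0. Aquantile scaling served only for levels. Of 42405 probes, 25664 were measured, representing 13812 genes by their brightest probe. RefSeq accessions named 95.0% of 27134 probes. A call was a log2 ratio of at least 1 in size, in 1 direction, on both arrays. Across measured probes the arrays correlated weakly (Pearson's r = 0.157). The technical SD of a single array, estimated from the differences between the arrays, was 0.24. The genes named were all members, list genes past 2-fold, the 3 genes of each list whose mean was largest in size and the 3 genes nearest to each member. Named outside this rule, after their values were seen, were EIF2AK2, the measured neighbours of the MX pair, the interferon genes, the unmeasured genes and single cell type markers. No spot-level p-value of the scanner software was used. Alternatives varied the background correction, offset, normalization, filter on dim probes, choice of probe, threshold and array, or took the software's or the authors' ratios. The mean spot signal was not analysed here, and some list genes are not reported here. Steps were tested on simulated data with changes larger than the mean ratio of any member, so that run does not cover ratios as small as theirs. Python 3.11.15, pandas 2.3.3 and numpy 2.4.6 were used.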

Additional observations from a re-analysis of the deposited data

How the results depend on the processing

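With 1 probe a member, the choice of probe could not change a member's value, and leaving out 1 of 2 arrays moves a mean by less than their SD by construction. The ranges are therefore given as values, not as a sign of stability. MX1 ranged from 1.28 to 1.45 under the alternatives run, GBP1 from 0.30 to 0.48, GBP3 from 0.03 to 0.26 and GBP2 from −0.03 to 0.27, with the lowest and highest from single arrays. MX2 was 1.68 with an offset of 16, 1.58 under median centring and 1.77 with the scanner software's ratios. GBP4 was 0.14 under median centring and 0.25 with the software's ratios. Median centring left 1 member probe past 2-fold, against 2, since MX1 gave 0.92 on the swap; it leaves a dye trend with intensity in place. The median of the type I list was 0.53 under median centring, 0.63 with the software's ratios and 0.67 to 0.71 with single arrays. The interferon gamma list gave 0.059 to 0.27 with single arrays and the neighbouring genes 0.056 to 0.15, against 0.18 and 0.10. The signalling list gave −0.024 under median centring, 0.040 with no filter on dim probes and 0.044 to 0.065 with single arrays, and the dynamin and atlastin list −0.16 under median centring. All probes past 2-fold numbered 36, against 67 with the software's ratios, 218 at 1.5-fold and 86 to 133 with single arrays, where no repeat was required. Why the software's ratios passed more often was not tested. Signal over background limits GBP2, GBP5 and GBP7.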
